A study of Mus musculus with 56 samples.

Results

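TH1 and TH2 cells that both lacked ODC, the enzyme that makes putrescine from ornithine, were compared with each other, to find which lineage differences were left between the deficient subsets. The members were the 7 libraries labelled ODC_KO in these subsets, 4 from TH1 cells (replicates 1 to 4) and 3 from TH2 cells (replicates 2 to 4), of the 31 libraries in the Odc count table and of the 55 in the whole series that have a column in a count table. The 8 WT libraries of the same table, 4 per subset, served as the reference, and 6 WT TH1 and TH2 libraries of a second table, made as controls for Dohh deficiency, gave a list of lineage genes chosen on none of these 15 libraries. CD4+ T cells of spleen and lymph node of C57BL/6 mice (naive ones by the study's methods, while the labels name no naive step) had been activated with anti-CD3 (5 ug/mL), anti-CD28 (2 ug/mL) and IL-2 (100 U/mL), and mRNA was sequenced on day 4. TH1 cultures, WT and deficient alike, received IL-12 (10 ng/mL), IL-2 (10 ng/mL) and an antibody against IL-4 (4 ug/mL). TH2 cultures received IL-4 (10 ng/mL), IL-2 (10 ng/mL) and an antibody against IFN-γ (4 ug/mL). Deficient cells, called Odc-/- here, came from Odc flox/flox mice that carry CD4Cre, a transgene which acts from the stage at which thymocytes express Cd4 and therefore also in later CD8+ T cells. By the study's methods the WT controls carried no Cre and the mice were young adults, with no age given for these samples. The labels do not say whether replicates came from separate animals, so that p-values measure the spread between these libraries.

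TH1 and TH2 cells are the effector states that naive CD4+ T cells take under IL-12 and under IL-4. IL-12 acts through STAT4 and, with IFN-γ, on the transcription factor T-bet (encoded by Tbx21), while IL-4 acts through STAT6 on GATA3. Each factor favours the cytokine genes of its own lineage, Ifng on one side and the linked genes Il4, Il5 and Il13 on the other, and restrains the opposite lineage. ODC opens the synthesis of polyamines, and one of them, spermidine, is the donor for the hypusine residue of the translation factor eIF5A.

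The libraries held 6873447 to 7881452 counts in Odc-/- cells and 6978044 to 8417521 in WT cells. Levels are given as CPM, counts scaled to the TMM-adjusted library size, and a count of 0 allows up to 0.382 to 0.453 CPM in the 7 Odc-/- libraries (3 counts, counting error only). Odc1 had 424, 679.8, 678 and 659 CPM in Odc-/- TH1 cells and 499.6, 492 and 487 CPM in Odc-/- TH2 cells, against 418 to 739 CPM over the 8 WT libraries. Its levels in the 2 deficient subsets overlapped (log2 fold change 0.31, adjusted p = 0.29), and since the table counts the whole gene, floxed exons included, these values do not check the deletion. On principal components of the 15 libraries, component 2 (33.2% of the variance) separated the subsets, with scores of 18.8 to 26.8 in TH1 and -29.5 to -25.6 in TH2 libraries of both genotypes. Component 1 (52.3%) separated the genotypes. On it, replicate 4 of WT TH1 (17.8) and of WT TH2 cells (20.9) lay below the other WT libraries (29.4 to 33.9). Replicate 1 of Odc-/- TH1 cells stood apart there, at -10.6 against -39.9 to -34.6 in the other 3, and its median distance to its own group (root mean square of log2 CPM differences over genes) was 0.744 against 0.425 to 0.456. Markers of B cells summed to 1454 CPM in that library and to 319 to 400 CPM in the other 3, with 670 to 998 CPM in Odc-/- TH2 and 63.7 to 282 CPM in WT cells. The loss of a call without this library is therefore stated for the genes described below, and counts without it are given for several of the lists. In bulk samples like these, fewer cells of a type and less RNA per cell cannot be told apart.

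**Figure D1:**
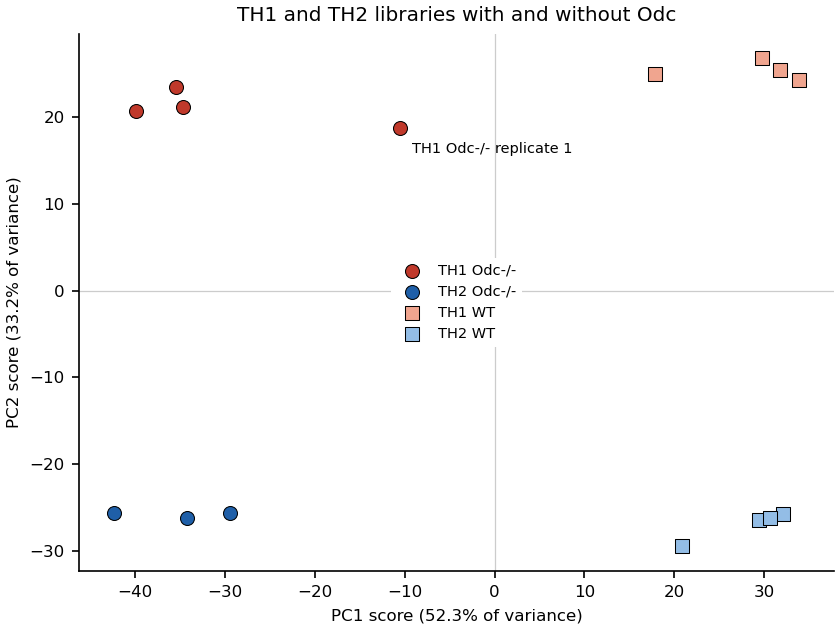
Principal components of the 15 TH1 and TH2 libraries of the Odc table over the 500 genes of highest variance. Each point is 1 library, circles are Odc-/- and squares WT, red TH1 and blue TH2. Component 2 (vertical, 33.2%) splits TH1 from TH2 in both genotypes, and replicate 1 of Odc-/- TH1 cells lies at -10.6 on component 1 (horizontal, 52.3%), away from its group.

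A lineage difference remained between the deficient subsets at many genes. Of 13839 genes tested, 930 (6.72%) were called between Odc-/- TH1 and Odc-/- TH2 cells by edgeR's quasi-likelihood test, with thresholds of 2 for the fold change and of 0.05 for the p-value after Benjamini-Hochberg adjustment. Of these, 509 (3.68%) were higher in TH1 and 421 (3.04%) higher in TH2 cells. In WT cells 1228 genes (8.87%) were called, 616 higher in TH1 and 612 higher in TH2. All fold changes below are log2 values of TH1 over TH2, so that a negative value is higher in TH2 cells. The 4 TH1 and the 3 TH2 libraries did not overlap for 24.0% of genes in Odc-/- cells (13.2% with TH1 above, 10.8% with TH2 above). Distances between TH1 and TH2 libraries had a median of 0.796 in Odc-/- and 0.84 in WT cells, while those within a group had medians of 0.443 to 0.589. Without replicate 1 of Odc-/- TH1 cells 975 genes were called, 399 higher in TH1 and 576 higher in TH2, and 754 of the 930 (81.1%) were among them. The call was repeated for 374 of the 421 genes higher in TH2 but for 380 of the 509 higher in TH1.

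The TH1 program kept its direction. Of 30 genes of a TH1 list, 21 were higher in Odc-/- TH1 cells and none was higher in Odc-/- TH2 cells, the same counts as in WT cells, and 18 were called in both genotypes. Of all genes, 3.68% were higher in TH1 cells without Odc and 4.45% in WT cells. In both genotypes and the same direction, 570 of all 13839 genes were called. The list's median was 1.69 in Odc-/- and 2.18 in WT cells, where the median over all genes was 0.002 and -0.026. Of the 30 genes, 19 had a smaller absolute fold change in Odc-/- cells, as had 7425 of all 13839 genes. Without replicate 1 of Odc-/- TH1 cells the counts were 21 and 0 and the median 1.87. Groups did not overlap for 22 of the 30 genes, against 24.0% of all genes.

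Tbx21 (chr11:97098071-97115331, GRCm38) had 172, 209, 226 and 181 CPM in Odc-/- TH1 cells and 74.9, 50.1 and 49.5 CPM in Odc-/- TH2 cells. In WT cells it had 123, 145, 119 and 205 CPM in TH1 and 11, 9.6, 13.6 and 24.2 CPM in TH2 cells. The subsets did not overlap in either genotype, and the 3 Odc-/- TH2 libraries lay above the 4 WT TH2 libraries. The fold change was 1.76 (standard error 0.34, adjusted p = 0.00057) in Odc-/- and 3.35 in WT cells. The difference of -1.58 between these folds, tested as the interaction of genotype and subset, did not pass (adjusted p = 0.08). It passed in 4 of 24 alternative settings, among them the replicate number as a block (-1.56, adjusted p = 0.00254) and DESeq2 (adjusted p = 0.035). Another of these was the fit without replicate 4 of WT TH2 cells (adjusted p = 0.02), and it passed in none of the other 14 fits with a library left out. Ifng (chr10:118441046-118445892), the signature TH1 cytokine, had 1052, 2292, 2894 and 2000.3 CPM in Odc-/- TH1 and 105, 106 and 65 CPM in Odc-/- TH2 cells. WT libraries had 592, 696, 519 and 1913 CPM in TH1 and 6.86, 3.6, 7.08 and 12.7 CPM in TH2 cells. Ifng was thus far higher in TH1 than in TH2 libraries of each genotype, and its level in every Odc-/- TH2 library exceeded that in every WT TH2 library. The fold change was 4.49 (standard error 0.55, adjusted p = 1.2e-06) in Odc-/- and 6.95 in WT cells, and the difference of -2.46 did not pass (adjusted p = 0.054). It passed in 8 of 24 alternative settings, among them the replicate block (-2.26, adjusted p = 0.0012), RLE scaling and DESeq2 (adjusted p = 0.028). Others of these were the fits without replicate 3 of Odc-/- TH1, replicate 1 or 3 of WT TH1 or replicate 4 of WT TH2 cells. Adjusted p-values ran from 0.032 to 0.15 over the 15 fits with a library left out. Exons of another annotated gene cover 25.9% of the exon length of Ifng, and the strand setting of the counting is not given in the sources used here.

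Both chains of the receptor that lets TH1 cells respond to IL-18 were among the genes higher in Odc-/- TH1 cells. Il18r1 (chr1:40465552-40500854), the ligand-binding chain, had 84.1, 158, 158 and 154 CPM in Odc-/- TH1 and 1.99, 2.42 and 2.2 CPM in Odc-/- TH2 cells. In WT cells the levels were 102, 106, 103 and 186 CPM in TH1 and 7.71, 8.54, 6.15 and 12.7 CPM in TH2 cells. TH2 libraries were lower without Odc than with it, while TH1 libraries of the genotypes overlapped. Its fold change of 5.96 (standard error 0.31, adjusted p = 5.2e-14) in Odc-/- cells exceeded that of 3.83 in WT cells, with a difference of 2.14 (adjusted p = 0.0024). Il18rap, the accessory chain, had 45.6 to 91.5 CPM in Odc-/- TH1 and 3.49 to 5.96 CPM in Odc-/- TH2 cells, a fold change of 4.01 (adjusted p = 1.1e-10). The receptor chain Il12rb2 was higher in Odc-/- TH1 cells by 1.36 (adjusted p = 0.0055). It lost the call without replicate 2 of Odc-/- TH2 cells, and 40% of its exon length is shared with another gene (0% on the same strand). Its partner chain Il12rb1 (0.02) and the signal transducer Stat4 (-0.08) were not called between the deficient subsets.

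Of the other TH1 genes, the T-box factor Eomes, the chemokine receptor Cxcr3 and the chemokine Xcl1 were called in Odc-/- cells and not in WT cells. Eomes had 11.8, 31.6, 17.7 and 37.2 CPM in Odc-/- TH1 and 11.5, 3.7 and 7.23 CPM in Odc-/- TH2 cells, a fold change of 1.72 (adjusted p = 0.00071, a call lost in a fit of only the groups compared), with at most 3.03 CPM in the 8 WT libraries. The lowest TH1 and the highest TH2 library were close together. Xcl1 had 4.68, 96, 56.6 and 68.9 CPM in Odc-/- TH1 and 5.04, 0.51 and 0.775 CPM in Odc-/- TH2 cells (fold change 4.76, adjusted p = 0.00054), so replicate 1 of TH1 cells lay within the TH2 range. Differences of the folds did not pass for Eomes (1.09, adjusted p = 0.51), Cxcr3 (0.52, adjusted p = 0.54) or Xcl1 (2.69, adjusted p = 0.91), the last of which had at most 2 reads in each WT TH2 library, so that its fitted difference depends on the prior count. Among effector molecules, Tnf (1.66), Lta (2.15), Fasl (1.35) and Nkg7 (1.91) were higher in Odc-/- TH1 cells. The killer lectin receptors Klrc1 (3.96) and Klrk1 (3.12) were also higher there. Ccl3 (1.73, adjusted p = 0.036) lost its call when any of 6 of the 7 Odc-/- libraries was left out, that is each but replicate 1 of TH1 cells, with adjusted p-values up to 0.15, and Ccl4 (1.67, adjusted p = 0.0071) lost it without replicate 4 of Odc-/- TH2 cells (adjusted p = 0.055). Gzmb (0.81 in Odc-/-, 1.60 in WT cells) and Havcr2 (0.13 and 1.85) were among the genes called in WT cells and not in Odc-/- cells, and for both the difference of the folds was not called, though that of Havcr2 (-1.72, adjusted p = 0.13) was with the replicate block (-1.66, adjusted p = 0.00741).

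**Figure D2:**
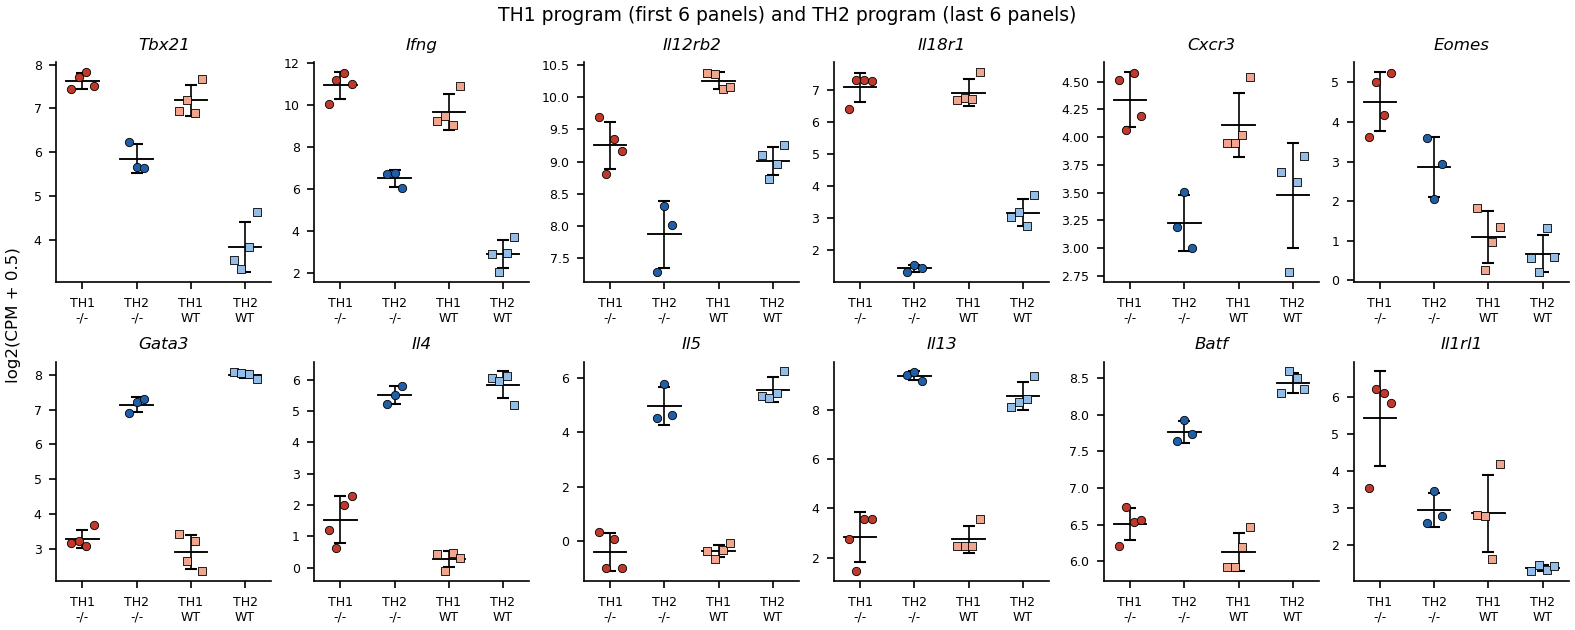
Levels of 6 TH1 program genes and 6 TH2 program genes in each library, as log2(CPM + 0.5), with the mean and SD of each group (4, 3, 4 and 4 libraries). TH1 libraries lie above TH2 libraries for Ifng and Il18r1 and below them for Gata3, Il4, Il5, Il13 and Batf in both genotypes, while Il1rl1 of the TH2 list is higher in TH1 cells.

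The TH2 program also kept its direction. Of 29 genes tested in the TH2 list, 12 were higher in Odc-/- TH2 cells and 1 was higher in Odc-/- TH1 cells, and in WT cells 16 and 1. Of all genes, 3.04% and 3.68% were called in these directions in Odc-/- and 4.42% and 4.45% in WT cells. The list's median was -0.98 in Odc-/- and -1.59 in WT cells, and 24 of the 29 genes had a smaller absolute fold change in Odc-/- cells, as had 7425 of all 13839 genes. A difference of the folds was called for 3 of the 29 (Gata3, Batf and Rad50), against 1.05% of all genes. With the replicate number as a block, those of Il4 (2.33), Pparg (1.47, adjusted p = 0.032) and Bhlhe41 (2.97) were among the differences called too. That fit called 336 differences over all 13839 genes. Without replicate 1 of Odc-/- TH1 cells the counts were 11 and 1 and the median -1.08.

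Gata3 (chr2:9857078-9890034) had 8.46, 8.73, 7.88 and 12.2 CPM in Odc-/- TH1 and 118, 147 and 158 CPM in Odc-/- TH2 cells. In WT cells it had 4.59 to 10.1 CPM in TH1 and 269, 266, 259.8 and 236 CPM in TH2 cells. The subsets were far apart in both genotypes, and the 3 Odc-/- TH2 libraries lay below the 4 WT TH2 libraries. Its fold change was -3.92 (standard error 0.22, adjusted p = 3.1e-13) in Odc-/- and -5.13 in WT cells. The difference of 1.22 (adjusted p = 0.037) was lost without replicate 4 of Odc-/- TH1, replicate 2 or 4 of WT TH1, any Odc-/- TH2 or replicate 1, 2 or 3 of WT TH2 cells, with adjusted p-values from 0.02 to 0.13 over the 15 fits with a library left out. Batf, an AP-1 factor needed for several helper programs, had 73.5 to 106 CPM in Odc-/- TH1 and 199 to 244 CPM in Odc-/- TH2 cells, with 315 to 386 CPM in WT TH2 cells. Its fold change was -1.25 in Odc-/- and -2.31 in WT cells, with a difference of 1.05 (adjusted p = 0.0061) that came under the 2-fold threshold (down to 0.97) without replicate 2 of Odc-/- TH1, replicate 1 or 2 of WT TH1 or replicate 2 of Odc-/- TH2 cells. Rad50, a DNA repair gene that lies between Il5 and Il13 and holds the locus control region of the TH2 cytokine cluster, had 64.6, 73.1, 68 and 79.1 CPM in Odc-/- TH1 and 104, 113 and 128 CPM in Odc-/- TH2 cells. WT TH2 cells had 181 to 205 CPM, above all Odc-/- libraries. The fold change of Rad50 of -0.69 in Odc-/- cells was under the threshold of a call, that of -1.76 in WT cells was not, and the difference of 1.07 (adjusted p = 1.1e-05) kept its call in all 15 fits with a library left out.

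Cytokine genes of the TH2 cluster remained strongly polarized. Il13 (chr11:53631324-53634702) had 6.34, 2.25, 11.4 and 11.3 CPM in Odc-/- TH1 and 675, 743 and 579.5 CPM in Odc-/- TH2 cells. WT TH2 cells had 277, 320.1, 349 and 667 CPM and WT TH1 cells 5.06 to 11.4 CPM. No TH1 library of either genotype came near a TH2 library, and the fold change was -6.41 (standard error 0.45, adjusted p = 7.4e-11) in Odc-/- and -5.92 in WT cells. Il4 (chr11:53602982-53618669) had 1.81, 1.06, 3.52 and 4.34 CPM in Odc-/- TH1 and 36.7, 45.4 and 55.2 CPM in Odc-/- TH2 cells, against 0.427 to 0.871 CPM and 36.2 to 69.5 CPM in WT cells. The 4 Odc-/- TH1 libraries lay above the 4 WT TH1 libraries, and TH2 libraries of the genotypes overlapped. Its fold change was -4.09 (adjusted p = 3.9e-08) in Odc-/- and -6.30 in WT cells, and the difference of 2.21 did not pass (adjusted p = 0.11), but did with the replicate block (2.33, adjusted p = 0.0182). Il5 (chr11:53720794-53725106), the eosinophil growth factor, had 0.755, 0, 0.563 and 0 CPM in Odc-/- TH1 and 22.4, 53.4 and 24.2 CPM in Odc-/- TH2 cells (fold change -6.64, adjusted p = 1.2e-09), with 27.1% of its exon length shared with another gene. Of the other TH2 genes, the factor Pparg (-3.18), the hypoxia-inducible factor Epas1 (-4.68) and the chemokine receptors Ccr8 (-3.15) and Ccr4 (-1.21) were higher in Odc-/- TH2 cells. Il6 (-2.11) lost its call without replicate 3 of TH2 cells (adjusted p = 0.065). Penk (-1.33, adjusted p = 0.031), an enkephalin precursor, lost it without any of 5 of the 7 libraries (TH1 replicates 1 and 3 and each TH2 library, adjusted p up to 0.095). Gfi1 (-1.01), a repressor of zinc finger type, lost its call without replicate 1 of TH1 or replicate 2 or 3 of TH2 cells (fold changes down to -0.89).

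Il1rl1, the IL-33 receptor and a usual marker of TH2 cells, went the other way. It had 11, 72.9, 68 and 56.3 CPM in Odc-/- TH1 and 5.57, 10.4 and 6.33 CPM in Odc-/- TH2 cells. WT cells had 6.5, 6.4, 2.61 and 17.8 CPM in TH1 and 1.96 to 2.27 CPM in TH2 cells. TH1 libraries were the higher ones in both genotypes, and replicate 1 of Odc-/- TH1 cells was close to the TH2 range. The fold change was 2.80 (adjusted p = 0.00045) in Odc-/- and 1.97 (adjusted p = 0.014) in WT cells. Called in WT and not in Odc-/- cells were, beside Rad50, the genes Bhlhe41 (-0.17 in Odc-/-, -3.70 in WT cells), Areg (-0.98 and -1.87), Maf (-0.63 and -1.28) and Il31 (0.74 and -1.48), none of which was called for a difference of the folds. With the replicate block that of Bhlhe41 was called (2.97, adjusted p = 0.0319). Il10 (-0.40), Il24 (-0.32), Il4ra (-0.14) and Stat6 (-0.07) were not called between the deficient subsets.

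Genes that interferon induces were still higher in TH1 cells in part, and for 8 of them the TH1 over TH2 fold differed between the genotypes. Promoters of 4 of them are shown here because Gbp7 and Tgtp2 had a smaller TH1 over TH2 fold without Odc, while Gbp3 and Gbp5 were called in both genotypes with no called difference of the folds, and that of Il13 is shown beside them as a gene of the TH2 side. Each is 250 bases before and 50 bases from the start of the RefSeq gene (GRCm38.p6), in the direction of the gene, and all were chosen after their values were seen. Capitals mark a core of interferon response elements (GAAA, any 2 bases and GAAA again), a core of STAT sites (TTC, any 3 bases and GAA) and the core AGATAA of sites for GATA factors. Each was searched on either strand of all 5 promoters, and matches that overlap are marked as 1 run.
Gbp7 (chr3:142530086-142530385, plus strand): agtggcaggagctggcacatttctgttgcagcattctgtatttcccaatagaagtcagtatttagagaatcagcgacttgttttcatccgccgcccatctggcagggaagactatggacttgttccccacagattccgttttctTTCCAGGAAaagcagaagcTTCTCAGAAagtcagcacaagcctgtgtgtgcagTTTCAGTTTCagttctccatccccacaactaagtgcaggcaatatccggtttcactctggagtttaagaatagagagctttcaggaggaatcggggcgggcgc
Tgtp2 (chr11:49064163-49064462, minus strand): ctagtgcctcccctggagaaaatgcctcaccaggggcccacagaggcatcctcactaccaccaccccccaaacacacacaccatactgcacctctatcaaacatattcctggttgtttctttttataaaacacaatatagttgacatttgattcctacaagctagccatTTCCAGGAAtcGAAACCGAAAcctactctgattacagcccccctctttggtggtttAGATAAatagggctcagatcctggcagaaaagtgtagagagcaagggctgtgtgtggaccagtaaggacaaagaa
Gbp3 (chr3:142559794-142560093, plus strand): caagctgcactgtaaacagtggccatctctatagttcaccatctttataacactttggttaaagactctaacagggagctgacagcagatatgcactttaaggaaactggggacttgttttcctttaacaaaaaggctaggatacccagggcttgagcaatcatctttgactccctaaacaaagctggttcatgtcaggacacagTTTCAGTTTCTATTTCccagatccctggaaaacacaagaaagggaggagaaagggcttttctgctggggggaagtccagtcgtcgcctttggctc
Gbp5 (chr3:142496684-142496983, plus strand): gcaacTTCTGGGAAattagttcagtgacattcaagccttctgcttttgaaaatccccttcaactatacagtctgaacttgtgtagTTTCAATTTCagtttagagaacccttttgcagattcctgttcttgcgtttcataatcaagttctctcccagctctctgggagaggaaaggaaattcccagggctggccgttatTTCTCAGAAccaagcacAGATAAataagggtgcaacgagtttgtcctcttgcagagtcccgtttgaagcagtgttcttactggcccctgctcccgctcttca
Il13 (chr11:53634653-53634952, minus strand): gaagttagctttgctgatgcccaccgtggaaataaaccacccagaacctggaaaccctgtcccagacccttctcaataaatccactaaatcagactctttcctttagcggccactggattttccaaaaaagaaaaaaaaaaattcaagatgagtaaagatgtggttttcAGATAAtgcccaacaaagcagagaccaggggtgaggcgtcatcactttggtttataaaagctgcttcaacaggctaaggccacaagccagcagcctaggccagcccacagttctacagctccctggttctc
The interferon core occurs in 3.49% of the 27025 promoters of the same length, the STAT core in 8.42% and AGATAA in 11.4%. A match describes letters in this window and says nothing of binding, and the pairs Gbp7 and Tgtp2 on one side and Gbp3 and Gbp5 on the other both hold the interferon core. AGATAA is in the promoters of Il13, Tgtp2 and Gbp5.

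Of 40 genes of the interferon list, 14 were higher in Odc-/- TH1 cells and none in Odc-/- TH2 cells (median 0.79), against 17 and none in WT cells (median 0.83), where 3.68% and 4.45% of all genes were higher in TH1 cells. Without replicate 1 of Odc-/- TH1 cells the counts were 15 and 0 and the median 0.79. Differences of the folds were called over all genes for 145 genes (1.05%), 78 more positive (0.564%) and 67 more negative (0.484%) in Odc-/- cells. This count and its balance depended on the fit, with 152 more positive and 184 more negative under the replicate block and 5 and 9 in a test against the 2-fold change itself. Of the list, 8 genes were called, Gbp11 and Usp18 more positive and Gbp7, Iigp1, Tgtp1, Tgtp2, Nlrc5 and Zbp1 more negative. These 8 kept their call in each of 15 fits with a library left out. Nlrc5 (chr8:94434356-94527272), the transactivator of MHC class I genes, had 328, 281, 324 and 298 CPM in Odc-/- TH1 and 169.6, 129 and 132 CPM in Odc-/- TH2 cells. In WT cells it had 292, 313, 272 and 299.8 CPM in TH1 and 44.7, 28, 46 and 37.8 CPM in TH2 cells. TH1 libraries of the genotypes overlapped, while each Odc-/- TH2 library lay far above each WT TH2 library. The fold change was 1.10 (standard error 0.13) in Odc-/- and 2.91 in WT cells, a difference of -1.81 (adjusted p = 1.2e-06).

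Zbp1, a sensor of nucleic acids that starts cell death, had 119, 117, 115 and 130.0 CPM in Odc-/- TH1 and 80.8, 65.1 and 78 CPM in Odc-/- TH2 cells. WT cells had 59.1, 52.9, 43.8 and 57 CPM in TH1 and 9.3, 7.74, 9.36 and 9.33 CPM in TH2 cells. Both deficient subsets were above both WT subsets, and the fold change was 0.69 in Odc-/- and 2.57 in WT cells (difference -1.89, adjusted p = 8.5e-05). Gbp7, a guanylate-binding protein of cell-autonomous defence, had 43.5, 36.6, 46.3 and 35.8 CPM in Odc-/- TH1 and 19.6, 18.1 and 16.9 CPM in Odc-/- TH2 cells, with 36 to 56.8 CPM and 2 to 6.86 CPM in WT cells. As for Nlrc5, the genotypes overlapped in TH1 and not in TH2 libraries. Its fold change was 1.15 in Odc-/- and 3.17 in WT cells (difference -2.02, adjusted p = 0.00091).

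For 3 immunity-related GTPases no difference between the deficient subsets was detectable. Tgtp2 (chr11:49057194-49064206) had 24.8, 22.4, 27.4 and 22.8 CPM in Odc-/- TH1 and 35.6, 17.7 and 24.9 CPM in Odc-/- TH2 cells, with 14.3, 12.8, 9 and 18.5 CPM in WT TH1 and 3.55, 1.47, 1.47 and 2.19 CPM in WT TH2 cells. Its subsets overlapped without Odc and were far apart with it, a fold change of -0.10 (standard error 0.21, adjusted p = 0.82) in Odc-/- and of 2.63 in WT cells. The difference was -2.73 (adjusted p = 1.1e-05). Tgtp1, a near-identical copy with which reads may be shared, gave -0.28 in Odc-/- and 2.35 in WT cells (difference -2.64, adjusted p = 1.1e-05). Iigp1 had 60.9, 75.4, 66.1 and 72.1 CPM in Odc-/- TH1 and 92.1, 35.7 and 43 CPM in Odc-/- TH2 cells, against 7.4 to 22.1 CPM in WT TH1 and 0.367 to 0.875 CPM in WT TH2 cells. All 7 Odc-/- libraries were above all 8 WT libraries, and the fold change was 0.27 (standard error 0.38) in Odc-/- and 4.44 in WT cells (difference -4.16, adjusted p = 0.0033).

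Other interferon genes were called higher in Odc-/- TH1 cells, some with a smaller and some with a larger fold than in WT cells. Gbp3 had 51.6, 47.9, 57.4 and 55.6 CPM in Odc-/- TH1 and 18.4, 21.7 and 15.9 CPM in Odc-/- TH2 cells, a fold change of 1.51 (adjusted p = 3.4e-09) against 2.32 in WT cells. Gbp5 had 146 to 189 CPM and 53.5 to 71.6 CPM, a fold change of 1.49 against 2.27 in WT cells. For neither was a difference of the folds called, since that of Gbp3 (-0.81, adjusted p = 0.019) was under 2-fold and that of Gbp5 (-0.78) did not pass (adjusted p = 0.1). Irf8, a regulatory factor of the family, was higher in TH1 cells by 1.39 in both genotypes. Usp18, which removes ISG15 from proteins and damps interferon receptor signals, had 45.2, 41.9, 89.6 and 56.1 CPM in Odc-/- TH1 and 2.39, 5.22 and 4.52 CPM in Odc-/- TH2 cells, with 39 to 52.1 CPM and 6.85 to 14.9 CPM in WT cells. TH2 libraries were the lower ones in both genotypes, and lower without Odc, so that the fold change was 3.84 in Odc-/- and 2.05 in WT cells (difference 1.78, adjusted p = 0.0064). Gbp11 had 21.9, 19.4, 21.4 and 26.6 CPM in Odc-/- TH1 and 6.89, 6.5 and 9.17 CPM in Odc-/- TH2 cells, and 11 to 22.2 CPM and 13.8 to 52.4 CPM in WT cells. It was higher in TH1 cells without Odc (1.57, adjusted p = 0.0012) and uncalled with it (-0.92), and the difference was 2.49 (adjusted p = 0.0019). Cxcl10, a ligand of CXCR3, was higher in Odc-/- TH1 cells by 4.65 (adjusted p = 1.6e-05). Reads of the Gbp family may be shared among copies, and Gbp10 (1.72), with 46.3% of its exon length shared, lost its call without replicate 4 of Odc-/- TH2 cells (adjusted p = 0.064). Irf7 (1.28), Isg15 (1.29), Xaf1 (1.28) and Ly6a (1.15) were called with all libraries, and each lost its call without replicate 2 of Odc-/- TH2 cells, Irf7, Xaf1 and Isg15 also without replicate 4 of them and Isg15 also without replicate 3 of Odc-/- TH1 cells.

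**Figure D3:**
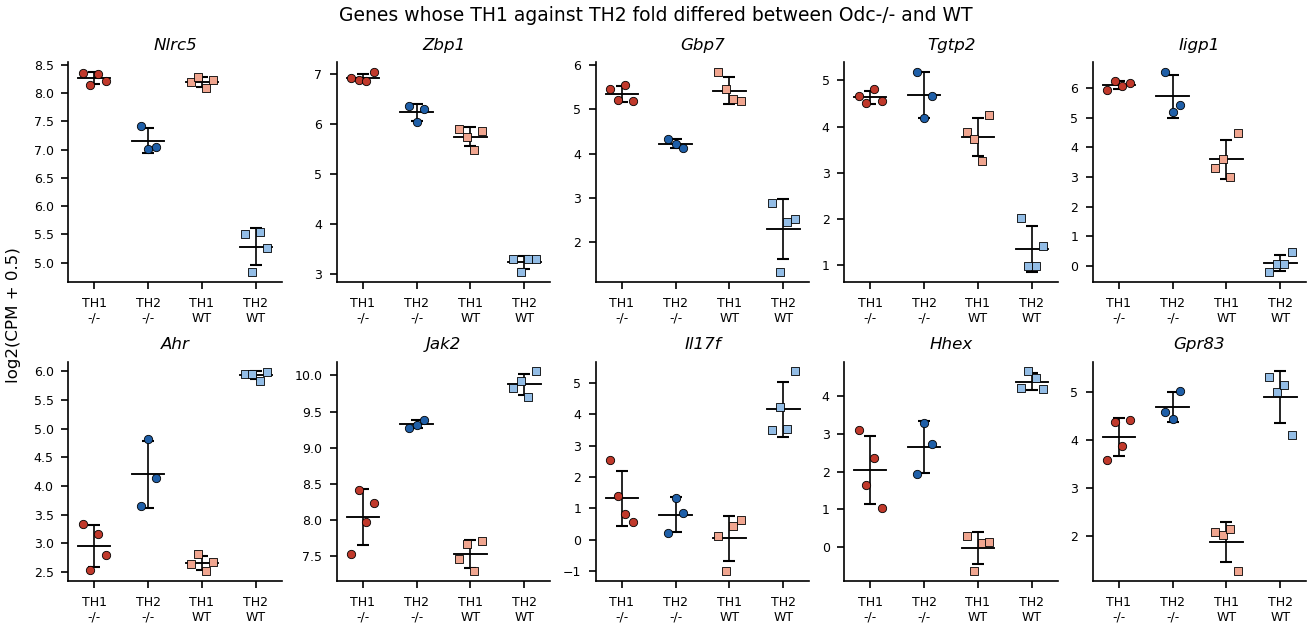
Levels of 10 genes with a called difference of the TH1 over TH2 fold between genotypes, as log2(CPM + 0.5) per library with the mean and SD of each group. For Nlrc5, Zbp1, Gbp7, Tgtp2 and Iigp1 the Odc-/- TH2 libraries lie above the WT TH2 libraries, and for Ahr, Jak2, Il17f and Hhex below them.

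Of 23 genes that carry the IL-12, IL-4 and IFN-γ signals, 2 were higher in Odc-/- TH1 cells (Il12rb2 and Ifngr1) and 2 in Odc-/- TH2 cells (Jak2 and Ifngr2), with a median of 0.24, where 6.72% of all genes were called. Jak2, a kinase of the IL-12 and IFN-γ receptors, had 184, 342, 252 and 302 CPM in Odc-/- TH1 and 618, 637 and 670.5 CPM in Odc-/- TH2 cells, with 156 to 209.8 CPM and 833 to 1063 CPM in WT cells. It was higher in TH2 cells of both genotypes with no overlap, by -1.25 (adjusted p = 1.1e-05) in Odc-/- and -2.34 in WT cells. The difference of 1.09 (adjusted p = 0.018) was lost without replicate 2 of Odc-/- TH1 or of Odc-/- TH2 cells. The chains of the IFN-γ receptor went in opposite directions in both genotypes, Ifngr1 with 1.47 and 1.48 and Ifngr2 with -1.67 and -1.77 in Odc-/- and WT cells.

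How much of the WT lineage pattern was left was measured on genes chosen in libraries outside this comparison. Of 833 genes called between WT TH1 and TH2 cells of the Dohh table, 643 (77.2%) were called in the same direction in WT cells of the Odc table and 378 (45.4%) in Odc-/- cells. Of all genes tested, 8.87% were called in WT and 6.72% in Odc-/- cells, in either direction. Of those higher in TH1, 211 of 437 (48.3%) were called again in Odc-/- cells, and of those higher in TH2, 167 of 396 (42.2%). The shares of all genes called in these directions in Odc-/- cells were 3.68% and 3.04%. In Odc-/- cells, 5 were called in the opposite direction. The sign was the same for 99.3% in WT and 89.0% in Odc-/- cells, and the median fold change in the direction of the list was 1.77 in WT and 1.09 in Odc-/- cells. A difference of the folds was called toward a smaller value in Odc-/- cells for 78 of these genes and toward a larger one for 5. Over all genes, 1.05% had a called difference in either direction. The Odc-/- comparison had 7 libraries and the WT comparison 8, and the tables were counted separately.

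**Figure D4:**
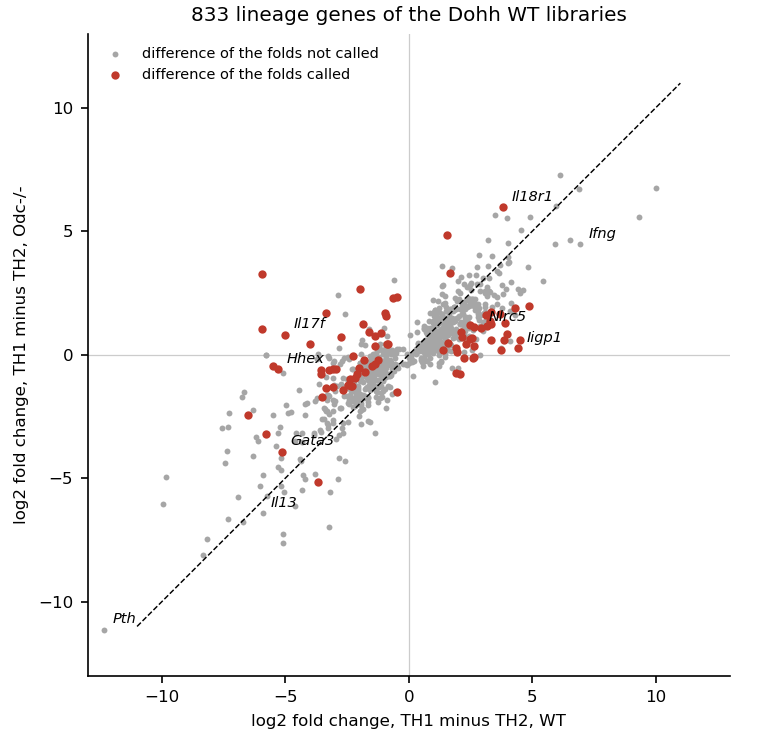
TH1 over TH2 log2 fold change in WT cells of the Odc table (horizontal) and in Odc-/- cells (vertical) for 833 genes called between WT TH1 and TH2 cells of the Dohh table. Each point is 1 gene, red where the difference of the folds was called, and the dashed line marks equal folds. Most points lie on the same side of 0 on both axes (89.0% in Odc-/- cells keep the list's sign), and the median fold change in the list's direction is 1.77 in WT and 1.09 in Odc-/- cells.

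Over all genes, 570 were called in both genotypes in the same direction and 3 in opposite directions (Tuba8, Fcrl1 and Avpr1a, named after their values were seen), all 3 higher in TH2 cells with Odc and in TH1 cells without it. Tuba8 was called so in each of 15 fits with a library left out, Fcrl1, a gene of B cells, in 11 and Avpr1a in 2. The number of such genes was 1 to 5 over these fits, 4 without replicate 1 of Odc-/- TH1 cells (these 3 among them), 8 with the replicate block (Fcrl1 not among them) and 0 in a test against the 2-fold change itself. A further 655 were called in WT cells alone and 357 in Odc-/- cells alone. A call in one genotype alone does not show a difference. Of the 145 genes with a called difference of the folds, 30 were higher in TH1 and 38 higher in TH2 cells in WT cells and uncalled in Odc-/- cells, while 12 and 16 were called in Odc-/- cells alone in these directions. Without replicate 1 of Odc-/- TH1 cells 181 differences were called (79 more positive, 102 more negative), 117 of the 145 among them. Without replicate 2 of Odc-/- TH2 cells 91 were called.

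The 8 genes with the largest called difference among those called in WT cells alone were Iigp1, Il17f, Mamdc2, Hhex, Ccdc33, Mylk, Myh11 and Hc. Il17f (chr1:20777146-20790617), an inflammatory cytokine best known from TH17 cells, had 5.29, 2.12, 1.27 and 0.98 CPM in Odc-/- TH1 and 0.663, 2.04 and 1.29 CPM in Odc-/- TH2 cells. WT TH2 cells had 10.8, 18.4, 11.1 and 40.8 CPM and WT TH1 cells at most 1.04 CPM. The WT TH2 libraries stood alone above the other 3 groups, and the fold change was 0.82 (adjusted p = 0.56) in Odc-/- and -4.99 in WT cells (difference 5.81, adjusted p = 0.0024). Hhex, a homeobox repressor, had 8.15, 2.65, 4.64 and 1.54 CPM in Odc-/- TH1 and 3.31, 9.3 and 6.2 CPM in Odc-/- TH2 cells, with 0.142 to 0.722 CPM in WT TH1 and 17.8 to 24.7 CPM in WT TH2 cells. Both deficient subsets lay between the WT subsets and overlapped (difference 4.73, adjusted p = 0.00068). Ccdc33, a coiled-coil gene, had at most 0.794 CPM in the 7 Odc-/- libraries and 9.91 to 21.3 CPM in WT TH2 cells (difference 4.42, adjusted p = 0.0031). Mylk, the myosin light chain kinase of smooth muscle, had 2.38 to 5.63 CPM and 2.2 to 5.1 CPM in Odc-/- TH1 and TH2 cells, where WT cells had 10.7 to 18.1 CPM and 0.667 to 1.6 CPM (difference -3.52, adjusted p = 0.006). Hc, which encodes complement C5, gave a difference of 3.10 (adjusted p = 0.016) that lost its call without replicate 2 or 4 of Odc-/- TH2 cells, and with the replicate block Hc was also called in Odc-/- cells, higher in TH1 (1.22, adjusted p = 0.027), opposite to WT cells. The calls of Mamdc2 (adjusted p = 0.035) and of Myh11 (adjusted p = 0.037) were lost in 10 and 11 of 15 fits with a library left out. Mamdc2 kept its call without replicate 4 of any group but Odc-/- TH2, replicate 3 of Odc-/- TH2 or of WT TH1 cells, and Myh11 without replicate 2 of Odc-/- TH1, replicate 1 or 3 of WT TH1 or replicate 4 of WT TH2 cells.

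A second set of 8 genes was called in Odc-/- cells and not in WT cells. Slpi, an inhibitor of leukocyte proteases, had 1.21, 0.661, 1.27 and 0.84 CPM in Odc-/- TH1 and 84.8, 30.3 and 48.6 CPM in Odc-/- TH2 cells, against 0.534 to 2.94 CPM in WT TH2 cells. Only the Odc-/- TH2 libraries were high among the 15, with a fold change of -5.76 (adjusted p = 7.4e-10) and a difference of -4.25 (adjusted p = 0.0056). Itga9, an integrin subunit, had 19, 7.26 and 10.1 CPM in Odc-/- TH2 cells and 0.245 to 4.76 CPM in the other 12 libraries (difference -4.27, adjusted p = 0.01, lost without replicate 1 of WT TH1 cells), and with the replicate block it was also called in WT cells, higher in TH1 (1.64, adjusted p = 0.0454). WT TH2 cells had 8 reads of Itga9 in all, at most 2 in a library, so these fitted values depend on the prior count, and the ratio of TH1 to TH2 in WT cells was 3.26 (interval 1.42 to 8.4). Ckap4, a membrane protein of the endoplasmic reticulum, had 6.04, 1.98, 3.66 and 1.68 CPM in Odc-/- TH1 and 34.3, 25.1 and 22.6 CPM in Odc-/- TH2 cells, with 11.3 to 23.4 CPM in WT cells. Here the TH1 libraries were the ones below WT, and the difference was -2.45 (adjusted p = 0.00072). Endou, an endoribonuclease, had 1.41 to 5.59 CPM in Odc-/- TH1 cells and 20.7 ± 0.658 CPM (SD, n = 3) in Odc-/- TH2 cells, with 6.66 to 16.2 CPM in WT cells (difference -2.89, adjusted p = 0.0066). Snx29, a sorting nexin, gave a difference of -2.78 (adjusted p = 0.00043). Toward TH1 cells, Atp6v0d2, a subunit of the proton pump, had 7.7, 5.03, 10.7 and 8.4 CPM in Odc-/- TH1 and 1.33, 2.04 and 1.29 CPM in Odc-/- TH2 cells, with 14 to 33.9 CPM in WT cells (difference 2.82, adjusted p = 0.019, lost without replicate 2 or 4 of Odc-/- TH2 cells). Esm1, a secreted proteoglycan, had 9.21 to 27.6 CPM and 4.64 to 6.37 CPM in Odc-/- TH1 and TH2 cells (difference 2.66, adjusted p = 0.016, lost without replicate 2 of Odc-/- TH2 or replicate 1 of WT TH2 cells, the former also for the fold change of 1.68 in Odc-/- cells). Gbp11, described above, completed the set.

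Genes with the largest fold changes between the deficient subsets were taken among called genes of at least 10 CPM in the higher group whose libraries did not overlap. Toward TH1 cells these were, beside Il18r1, Cxcl10 and Ifng, the genes Serpinb5, Chl1, Sema3b, Ms4a4c, Ms4a4b, Onecut2 and P2rx3. Sema3b, a secreted semaphorin, had 60.6, 28.4, 33.2 and 30.0 CPM in Odc-/- TH1 and 0.127 to 0.517 CPM in Odc-/- TH2 cells (fold change 6.71, adjusted p = 3.3e-11), with 112 to 149 CPM in WT TH1 cells. Serpinb5, a serpin known as maspin, had 49.8, 7.01, 22.8 and 11.6 CPM in Odc-/- TH1 cells and 3 reads in all in Odc-/- TH2 cells, a ratio of 170 (95% counting interval 58 to 828). Levels of both in Odc-/- TH1 cells were below those of WT TH1 cells, where Serpinb5 had 152 to 204 CPM. Chl1, an adhesion molecule, gave a ratio of 124 (interval 33.9 to 1026) and Ms4a4c one of 54.5 (interval 23.1 to 169). Ms4a4b, a membrane protein of TH1 cells, had 61.5 to 119 CPM and 2.45 to 3.44 CPM, a fold change of 5.05. P2rx3, an ATP-gated channel, had 28.6 to 49.7 CPM in Odc-/- TH1 and 1.33 to 1.66 CPM in Odc-/- TH2 cells (4.63), and Onecut2, a homeobox factor, had 1.21 CPM in replicate 1 and 13.9 to 18.3 CPM in the other 3 of Odc-/- TH1 cells (4.64).

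Toward TH2 cells they were, beside Il5, Il13 and Slpi, the genes Pth, Chil3, Ighe, Il5ra, Peg10, Timd2 and Nts. Pth, the parathyroid hormone gene, had 56.3, 194 and 95.2 CPM in Odc-/- TH2 cells and 1 read in all 4 Odc-/- TH1 libraries, a ratio of 3295 (interval 591 to 130195). In WT cells it had 81.9 to 86.3 CPM in TH2 cells and no read in TH1 cells, which makes it at least 772-fold higher in TH2 cells (floor of 3 counts over the group). Timd2, a T cell immunoglobulin and mucin domain receptor, had 101, 62.3 and 70.3 CPM in Odc-/- TH2 and 0.281 to 1.19 CPM in Odc-/- TH1 cells, a fold change of -6.76 (adjusted p = 8.8e-15) against -6.69 in WT cells. For both, TH1 libraries were at or near 0 in each genotype and TH2 libraries overlapped between the genotypes. Il5ra, the receptor chain for IL-5, had 46.8, 14.9 and 21.2 CPM in Odc-/- TH2 cells (ratio 260, interval 88.5 to 1263) where WT TH2 cells had 2.4 to 8.6 CPM. Nts, the neurotensin precursor, had 15.6, 34.3 and 27.4 CPM in Odc-/- TH2 and 3.61 to 4.37 CPM in WT TH2 cells (fold change -6.14 in Odc-/- cells, adjusted p = 1.7e-09), and Peg10, an imprinted gene of retrotransposon origin, 11.8, 25.9 and 21.6 CPM and 3.06 to 4.77 CPM. For Il5ra, Nts and Peg10 each Odc-/- TH2 library was above each WT TH2 library, and the differences of the folds were not called. That of Peg10 (-3.75, adjusted p = 0.0885) was called with the replicate block (-4.43, adjusted p = 0.00236) and by DESeq2 (adjusted p = 0.014), all fitted on 4 reads in all in Odc-/- TH1 cells (ratio of TH2 to TH1 141, interval 54.7 to 520). Chil3, a chitinase-like secreted protein, had 9.54, 86 and 11.9 CPM in Odc-/- TH2 cells and no read in Odc-/- TH1 cells, at least 344-fold higher, with 1 of the 3 libraries far above the others. Ighe, the constant region of IgE, had 78.1, 34.4 and 44.7 CPM in Odc-/- TH2 cells and 5 reads in all in Odc-/- TH1 cells (ratio 296, interval 127 to 914). Markers of B cells stood at 670 to 998 CPM in the same TH2 libraries, and at 1454 CPM in replicate 1 of Odc-/- TH1 cells, which had 0.302 CPM of Ighe. The part of B cell RNA in this result was not tested.

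Of 26 genes of chemokines and their receptors, 9 were higher in Odc-/- TH1 and 5 in Odc-/- TH2 cells, where 3.68% and 3.04% of all genes were. In both genotypes 10 of the 26 were called in the same direction, as were 570 of all 13839 genes. Ccl22, a ligand of CCR4, had 13, 33.2, 38.7 and 27 CPM in Odc-/- TH1 and 1150.3, 589.9 and 632 CPM in Odc-/- TH2 cells, a fold change of -4.82 (adjusted p = 1.1e-07). WT TH2 cells had 50.8 to 143 CPM, below each Odc-/- TH2 library, and the fold change in WT cells was -3.80 (difference -1.01, adjusted p = 0.65). Ccl17, the other ligand of CCR4, had 11.1 to 18.5 CPM in Odc-/- TH2 and 0.151 to 0.985 CPM in Odc-/- TH1 cells (-4.85). In the list of cytotoxic granule genes, 5 of 16 were higher in Odc-/- TH1 cells (Fasl, Nkg7, Ctsw, Gzmf and Gzmk) and none in TH2 cells. Beside this, 3.68% and 3.04% of all genes were called in these directions. Summed, these 16 genes had 6000 to 9682 CPM in Odc-/- TH1 and 4262 to 6000 CPM in Odc-/- TH2 cells. Markers of CD8 T and NK cells, which share such genes, summed to 117 to 173 CPM and 40 to 46.2 CPM in the same libraries, and their part in this result was not tested. The call of Gzmf (1.77) was lost without replicate 2 or 4 of TH2 cells, and that of Gzmk, at no more than 2.25 CPM, without replicate 3 of TH1 or any TH2 library.

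Calls of TH17 genes between the deficient subsets rested in part on 1 library. Of 14, 6 were higher in Odc-/- TH1 cells (among them Ccr6, Il23r, Rora, Ltb4r1 and Il21) and 2 in Odc-/- TH2 cells (Ahr and Il1r1), where 3.68% and 3.04% of all genes were, and without replicate 1 of TH1 cells 3 and 2. Il21 (1.19) lost its call without replicate 1 of TH1 or replicate 2 of TH2 cells. Ltb4r1 (1.51) lost it without replicate 1 or 3 of TH1 or replicate 2 or 4 of TH2 cells (down to 0.91). Il1r1 (-1.42, and -2.15 without replicate 1 of TH1 cells) lost it without replicate 4 of TH1 or replicate 3 of TH2 cells. Rora (1.65) and Ccr6 (2.73), which do not overlap between the subsets, kept theirs without any library, Ccr6 with 2.03 without replicate 1 of TH1 cells, which had the most of it (40.5 CPM, others 8.54 to 14.9). Markers of γδ T cells, which also express these genes, summed to 163 to 373 CPM in Odc-/- TH1 and 143 to 156 CPM in Odc-/- TH2 cells, and their part was not tested. Ahr, the aryl hydrocarbon receptor, had 9.66, 5.29, 8.44 and 6.44 CPM in Odc-/- TH1 and 12.1, 27.8 and 17.1 CPM in Odc-/- TH2 cells, with 5.22 to 6.54 CPM in WT TH1 and 56.4 to 63 CPM in WT TH2 cells. TH2 cells without Odc lay between the WT subsets. The fold change was -1.35 in Odc-/- (-0.97 without replicate 3 of TH2 cells, under the threshold) and -3.36 in WT cells, and the difference of 2.01 (adjusted p = 0.00091) kept its call in each of the 15 fits with a library left out.

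Of 14 Treg genes, 1 was called in Odc-/- cells, near the 6.72% of all genes, against 3 higher in TH1 and 4 higher in TH2 cells in WT cells, where 8.87% of all genes were called. Foxp3 gave 0.98 and was not called. The one called gene, the ectonucleotidase Entpd1 (1.80, adjusted p = 0.0028), came under the threshold (0.99) without replicate 1 of Odc-/- TH1 cells. Gpr83, a receptor enriched in Treg cells, had 11.5, 20.2, 14.2 and 20.7 CPM in Odc-/- TH1 and 23.3, 21.3 and 32 CPM in Odc-/- TH2 cells, and 1.92 to 3.92 CPM and 16.8 to 38.8 CPM in WT cells. TH1 libraries without Odc were above those with it, and the difference of the folds was 2.59 (adjusted p = 0.0037). Among genes of naive and memory T cells, 4 of 14 were higher in Odc-/- TH1 cells and none in TH2 cells, where 3.68% and 3.04% of all genes were, and without replicate 1 of Odc-/- TH1 cells 2 and none. Id3, an inhibitor of E proteins, had 12.3 to 18.6 CPM and 4.08 to 5.83 CPM (1.57), and its difference of 1.10 to WT cells (adjusted p = 0.016) was lost without replicate 2 of Odc-/- TH1 or replicate 3 of Odc-/- TH2 cells. Ccr7 (1.06) and S1pr1 (1.03), receptors for lymph node entry and exit, came under the threshold without replicate 1 of Odc-/- TH1 cells (0.96 and 0.79), both lost their call also without replicate 2 of Odc-/- TH2 cells, and S1pr1 without replicate 4 of the same.

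Of 21 genes of the polyamine and hypusine pathway, 1 was higher in Odc-/- TH1 and 2 in Odc-/- TH2 cells (median -0.13), where 3.68% and 3.04% of all genes were. Azin2, an antizyme inhibitor, had 12.2, 5.82, 8.44 and 7.42 CPM in Odc-/- TH1 and 28, 38.2 and 27.5 CPM in Odc-/- TH2 cells, a fold change of -1.89 (adjusted p = 2.4e-07) against -2.29 in WT cells. Smox, the spermine oxidase, had 342, 63.7, 153 and 111 CPM in Odc-/- TH1 and 23.6, 83.5 and 53.4 CPM in Odc-/- TH2 cells. The groups overlapped, and the fold change of 1.65 (adjusted p = 0.012) was 1.01 (adjusted p = 0.0945) without replicate 1 of TH1 cells, with the call lost also without replicate 2 or 4 of TH2 cells. The enzymes that follow ODC, Srm (-0.22) and Sms (-0.51), and those of hypusine synthesis, Dhps (-0.15) and Dohh (0.07), were not called.

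Markers of T cells and of other cells moved with the comparison as follows. No gene of 16 of T cell identity was called between the deficient subsets, and Cd4 gave 0.42, but the summed level was 5704 to 6319 CPM in Odc-/- TH1, 4197 to 4736 CPM in Odc-/- TH2 and 6002 to 7989 CPM in WT cells. Of 12 markers of CD8 T and NK cells, 5 were higher in Odc-/- TH1 and none in Odc-/- TH2 cells (3.68% and 3.04% of all genes), with a sum of 117 to 173 CPM and of 40 to 46.2 CPM. Klrd1, one of these, was also among the genes called in WT cells (3.31 and 3.65). Cd8a had 22.8, 4.5, 10.6 and 7.14 CPM in Odc-/- TH1 and 1.29 to 1.91 CPM in Odc-/- TH2 cells, and lost its call without replicate 1 of TH1 cells or any TH2 library. Constant genes of the γδ T cell receptor were higher in Odc-/- TH1 cells for Tcrg-C1 (1.87), Tcrg-C2 (1.21) and Tcrg-C4 (1.32), the last 2 lost in 6 of 7 fits with a library left out, each but that without replicate 1 of TH1 cells. Summed γδ markers stood at 163 CPM in replicate 1 and 322 to 373 CPM in the other Odc-/- TH1 libraries, at 143 to 156 CPM in Odc-/- TH2 and at 16.1 to 63.1 CPM in WT cells. Of 12 B cell markers 1, Cd79b (-1.97, adjusted p = 0.0062), was called. Without replicate 1 of TH1 cells Cd79b gave -3.02 (adjusted p = 1.35e-05), and 5 of 11 B cell markers were higher in TH2 cells. Of 13 myeloid markers 1 was called (Mpeg1, higher in TH1, lost without replicate 1 of TH1 or any TH2 library), and of 14 basophil and mast cell markers 2 (Kit, higher in TH1, and Mcpt1, higher in TH2 cells), the latter at no more than 13.3 CPM and lost in 6 of 7 fits, each but that without replicate 1 of TH1 cells. Of all genes 6.72% were called, so without a block the counts of B cell and myeloid markers with all libraries were near the background. With the replicate number as a block they were not. Then 6 of 12 B cell markers were higher in TH2, and of 13 myeloid markers 4 were higher in TH1 and 2 in TH2, against 1164 of 13839 genes called. B cell and γδ markers were detected in all 7 Odc-/- libraries, with at most 1 gene of each list at 0 in a library. The part of such cells in the differences above was not tested.

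**Figure D5:**
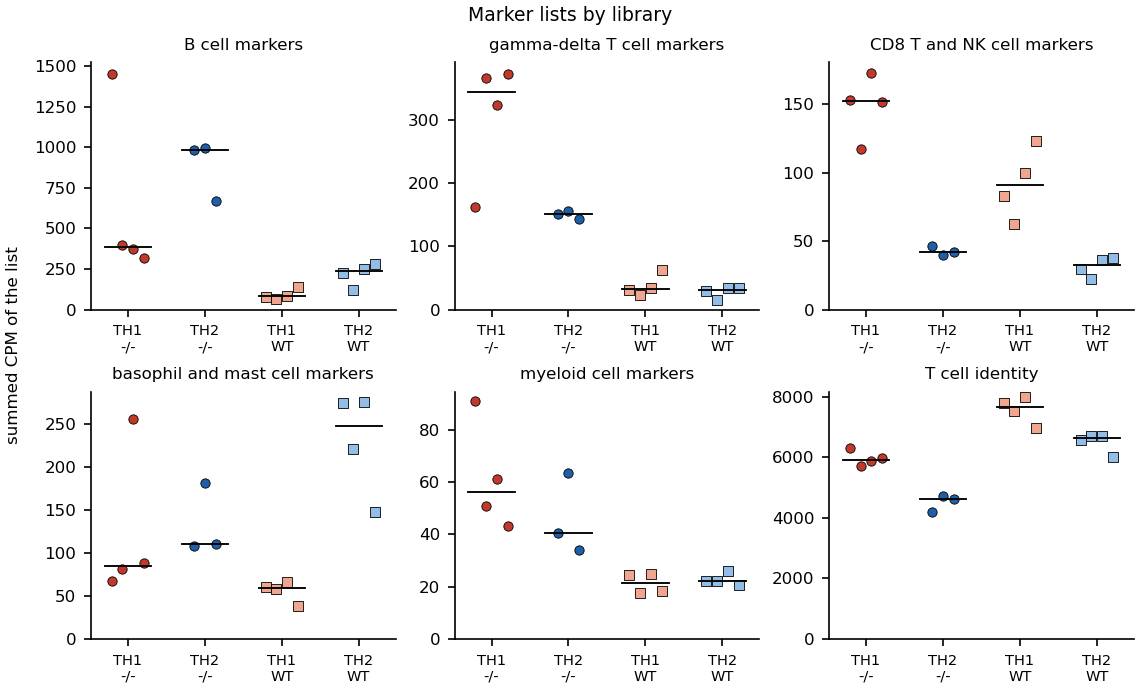
Summed CPM of 6 marker lists in each of the 15 libraries, with the median of each group as a line (vertical axes start at 0). Replicate 1 of Odc-/- TH1 cells has 1454 CPM of B cell markers, above the other 3 of its group at 319 to 400 CPM, and Odc-/- TH1 cells have more CD8 T and NK cell marker RNA than Odc-/- TH2 cells.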

How the data were processed

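Raw counts per gene were deposited by the authors, and per the labels the reads were aligned with STAR to mm10 and counted with featureCounts, for which versions, annotation release and strand setting are not given in the sources used here. DESeq2 and deepTools are also named there. The Odc and Dohh tables were counted and fitted separately. Genes of the Odc table were kept with edgeR's filterByExpr over 8 groups, scaled by TMM and fitted in edgeR 4.0.16 (R 4.3.3) by a robust quasi-likelihood model with 1 mean per group. Contrasts were TH1 against TH2 in Odc-/- cells, the same in WT cells, and their difference. A gene was called when its fold change exceeded 2 and its p-value, adjusted by Benjamini-Hochberg over all genes tested, was under 0.05. The script was tested on simulated data. Of 47937 genes, 39192 matched GENCODE vM21 (GRCm38) with their version, 8118 without it and 627 not at all.

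The members and the 16 gene lists were chosen with earlier results of these data known. Named genes were Odc1, 12 program genes, list members called in Odc-/- cells or for the difference of the folds, the 10 largest called folds in each direction (at least 10 CPM, no overlap), and up to 8 genes by size of the difference among those polarized in WT cells alone or in Odc-/- cells alone. Counts of 3 or fewer in each library of a group gave a ratio of summed CPM with a 95% exact counting interval, or with no read a bound at 3 counts over the group. Intervals and floors cover counting error only. Replicates of each group differed by more than counting noise. WT libraries with the same replicate number deviated together (r = 0.316, 0.235, 0.276 and 0.515 for the 4 pairs of TH1 and TH2 libraries, over genes), so the numbers were taken to pair them. The main fit did not use this pairing, and its p-values ignore it. The fit with a replicate block used the numbers of both genotypes and called 336 differences of the folds, where the main fit called 145. Alternatives were RLE scaling, DESeq2 1.42.0, other filters, thresholds and fits, a replicate block and leaving out each library. TH2 replicate 1 of Odc-/- cells was not analysed here. A few members of the gene lists enter the counts and are not reported here by name.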

Additional observations from a re-analysis of the deposited data

Results flagged for a closer look

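Single libraries stood apart from their group of 4 by Dixon's test at the 95% level for 31 of 318 combinations of a named gene and a group and for 4 of 48 list sums, where chance gives about 1 in 20. Groups of 3, as Odc-/- TH2 cells, were not tested. In replicate 1 of Odc-/- TH1 cells, levels were high for Kit (11.5 CPM, others at most 7.6), Endou (5.59, at most 1.85), Ifngr2 (17.8, at most 9.39), Cd79b (41.2, at most 10.3), Mpeg1 (27.8, at most 9.15) and Sema3b (60.6, at most 33.2). They were low there for Odc1 (424 CPM, others at least 659), Il18rap (45.6, at least 85.7), Il18r1 (84.1, at least 154) and Gbp5 (146, at least 183). Summed B cell markers were 1454 CPM against 319 to 400 CPM and summed polyamine genes 4096 CPM against 4928 to 5069 CPM. Replicate 3 of the same group was high for Il23r (5.49 CPM, others at most 3.02) and for summed basophil and mast cell markers (256 CPM, at most 88.7), and replicate 2 low for Gbp6 (37.8 CPM, at least 49).

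In WT TH1 cells, replicate 4 was high for Ifng (1913 CPM, others at most 696), Ccl3 (76.7, at most 14.4), Ccl4 (76.4, at most 39.7), Nkg7 (283, at most 195), Odc1 (739, at most 461), Il13 (11.4, at most 5.12), Il18r1 (186, at most 106), Chl1 (21, at most 15.7), Cxcl10 (3.26, at most 0.569), Cxcr3 (22.8, at most 15.7), Cd8a (22.1, at most 6.1) and Tcrg-C4 (9.47, at most 3.76), and replicate 3 was low for Gbp10 (1.02 CPM, at least 4.69). In WT TH2 cells, replicate 4 was high for Il5 (74.3 CPM, others at most 42.6), Il5ra (8.6, at most 3.31) and Ccr6 (2.04, at most 1.07) and low for Ms4a4b (1.6, at least 5.34). Replicate 2 was low for Rad50 (181 CPM, at least 202), Zbp1 (7.74, at least 9.3) and summed cytotoxic granule genes (1938, at least 2536).

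The TH1 over TH2 log2 fold change differed between Odc-/- and WT cells, by the edgeR test of the difference itself, for 30 named genes. It was more positive in Odc-/- cells for Id3 (1.10), Gata3 (1.22), Ahr (2.01), Rad50 (1.07), Jak2 (1.09), Hhex (4.73), Il18r1 (2.14), Hc (3.10), Atp6v0d2 (2.82), Usp18 (1.78), Gpr83 (2.59), Mamdc2 (5.06), Batf (1.05), Ccdc33 (4.42), Il17f (5.81), Esm1 (2.66) and Gbp11 (2.49). It was more negative for Slpi (-4.25), Myh11 (-3.15), Endou (-2.89), Mylk (-3.52), Zbp1 (-1.89), Itga9 (-4.27), Gbp7 (-2.02), Ckap4 (-2.45), Iigp1 (-4.16), Snx29 (-2.78), Nlrc5 (-1.81), Tgtp2 (-2.73) and Tgtp1 (-2.64). WT TH1 cells had at most 3 reads of Mamdc2 per library and WT TH2 cells at most 2 of Itga9, so both fitted values depend on the prior count.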

How the results depend on the processing

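The counts below are genes called in Odc-/- cells (930), in WT cells (1228), for the difference of the folds (145), again from the Dohh WT list in Odc-/- cells (378) and in both genotypes in the same direction (570). They stayed within 1.5 times under RLE scaling (920, 1227, 146, 378 and 566), DESeq2 (920, 1231, 200, 424 and 571), no low-count filter and a fit of only the groups compared. A filter at a mean count of 50 gave 482 in Odc-/- and 580 in WT cells, 208 of the list and 250 in both, with fewer genes tested. A test against the 2-fold change itself (glmTreat) gave 291, 517, 14, 105 and 182. Without the fold threshold the counts were 1999, 2973, 230, 611 and 1245, and at an adjusted p-value below 0.01 there were 71 differences of the folds. Leaving out a library gave 700 to 975 calls in Odc-/- and 1133 to 1224 in WT cells, 91 to 181 differences, 311 to 369 genes of the list and 481 to 575 in both genotypes. Only libraries of the groups compared were left out.

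With the replicate number as a block, 1164 genes were called in Odc-/- cells (540 higher in TH1, 624 higher in TH2), 1373 in WT cells and 336 for the difference (152 more positive, 184 more negative). In Odc-/- cells 6 of 12 B cell markers, all higher in TH2, and 6 of 13 myeloid markers (4 higher in TH1, 2 in TH2) were then called. Of the Odc-/- libraries with the same number, replicates 2 and 4 deviated together (r = 0.437 and 0.179) and replicate 3 did not (r = 0.0339). Replicate 3 of TH2 cells went with replicate 1 of TH1 cells instead (r = 0.403), so pairing of the Odc-/- libraries was left undecided. Of the 122 named genes the block changed the call of S1pr1 (0.81, adjusted p = 0.0333) and of Hc (1.22, adjusted p = 0.027) in Odc-/- cells and no other fold change there. It ended none of the 30 called differences, and 11 more were called, those of Tbx21, Ifng, Il4, Pparg, Hlx, Il1r1, Il21, Il23r, Ltb4r1, Tcrg-C1 and Peg10. RLE scaling and DESeq2 ended no call of these genes. RLE scaling added the difference of Ifng and DESeq2 those of 5 genes (Tbx21, Ifng, Il1r1, Il23r and Peg10). Other settings ended some calls and added others. A fit of only the groups compared ended 14 of the calls in Odc-/- cells (Eomes, Cd79b, Entpd1, Irf7 and Smox among them) and 1 difference (Id3). Testing with no low-count filter ended 10 (Ccl3, Cd8a, Mpeg1 and Mcpt1 among them) and 3 differences (Gata3, Atp6v0d2 and Myh11), and an adjusted p-value below 0.01 ended 18 and 9. A test by glmTreat ended 51 and 23. The fit of only the groups compared also added 4 differences, and a filter at a mean count of 50 added 1. Without the fold threshold 2 calls in Odc-/- cells and 1 difference were added. No named value reversed its direction with a call. With 3 Odc-/- TH2 libraries and 6873447 to 7881452 counts per Odc-/- library, levels below 0.382 to 0.453 CPM could not be told from 0.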

Other observations

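The 3 genes called in opposite directions in the genotypes, named after their values were seen, were all more positive in Odc-/- cells. None of them reached a mean of 10 CPM in any group of TH1 or TH2 libraries. Only Tuba8 was called so in a fit of only the groups compared and at an adjusted p-value below 0.01. A filter at a mean count of 50 left 0 such genes. Tuba8, an alpha tubulin, gave 2.67 (adjusted p = 0.000198) in Odc-/- and -1.96 in WT cells, Fcrl1, an Fc receptor-like protein of B cells, 1.63 and -1.69, and Avpr1a, a vasopressin receptor, 4.64 and -2.40.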
